A study of Rattus norvegicus with 3 samples.

Results

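The genes of mitochondrial oxidative phosphorylation were examined in rat sarcoma cells and in rat mesenchymal stem cells (MSCs). They were taken by symbol: every gene with a named probe whose rat symbol begins with Nduf, Uqcr, Atp5, Cox4, Cox5, Cox6, Cox7 or Cox8, and Sdha, Sdhb, Sdhc, Sdhd, Cyc1 and Cycs. No expression value entered this choice. The rule found 79 genes among 13301 named genes, and 77 of them were well above background on at least 1 array. Of these 77 genes, 75 were well above background on all 3 arrays. Another 41 protein-coding symbols that fit the rule, Cyc1, Ndufa10, Cox6b1, Cox7a1 and Atp5mc3 among them, were not analysed here because no probe was named for them.

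Oxidative phosphorylation is carried out in the inner mitochondrial membrane. Complex I takes electrons from NADH and complex II takes them from succinate. Ubiquinone hands the electrons to complex III, and cytochrome c carries them on to complex IV, where oxygen is reduced. Complexes I, III and IV pump protons, and complex V, the ATP synthase, uses the gradient to make ATP. The nuclear genes of these complexes were measured here, while the subunits encoded by mitochondrial DNA lie outside the rule. A few subunits of complex IV exist as isoforms that are known to be restricted to muscle, lung or testis.

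All cells came from rats of the F344 strain. COS1NR is an osteosarcoma line and MFH1NR is a malignant fibrous histiocytoma line, and per the study's methods both were established from tumors induced with 4-hydroxy quinolone 1-oxide and carry a p53 mutation. The MSCs were grown from femoral bone marrow by adhesion to plastic, without a sort, and were kept in medium with more serum than the lines. Cy3-labeled RNA of each was hybridized to 1 whole rat genome array of Agilent, so there were no replicates and no difference could be tested. The age and sex of the rats and the passage of the cells were not given in the sources used here.

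By the call of the scanner software, 59.7% of the spots of the MSC array were well above background, 56.6% of those of COS1NR and 58.2% of those of MFH1NR. Intensities are given relative to the 75th percentile of each array, called relative intensity, and ratios are log2 differences of these values. Where 3 values stand without names they follow the order MSCs, COS1NR and MFH1NR, and pairs of ratios to MSCs give COS1NR before MFH1NR. Both sarcoma arrays lay on 1 slide and were scanned together, while the MSC array lay on another, so in each comparison with MSCs the slide cannot be told apart from the cell type. Of 8 stromal markers, 8 were well above background in MSCs, with a summed relative intensity of 220, against 35.4 in COS1NR and 36.2 in MFH1NR. The MSC culture also carried macrophage RNA: 15 of 15 macrophage markers were well above background, with a summed relative intensity of 170, against 9.67 in COS1NR and 4.72 in MFH1NR. Osteoclast markers summed to 71.7 in MSCs, against 2.66 in COS1NR and 7.43 in MFH1NR. Proliferation markers summed to 46.5 in MSCs, against 230 in COS1NR and 210 in MFH1NR, and 12 of 12 were at least 2-fold higher in each line. Adipocyte markers summed to 2.06 in MSCs, against 38.8 in COS1NR and 0.848 in MFH1NR. Of the 7 used, 5 were at least 2-fold higher and 2 at least 2-fold lower in COS1NR than in MSCs. In MFH1NR 1 was higher and 4 were lower. The part of these other cells and of growth rate in the ratios below was not tested, and fewer cells of a type and less RNA per cell cannot be told apart in such samples.

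The oxidative phosphorylation genes had moderately higher intensities in COS1NR than in MSCs, and few lower ones. Their median log2 ratio to MSCs was 0.68, with quartiles of 0.44 and 1.12, while the median of all 10010 genes used was 0.11, with quartiles of -0.83 and 0.87. Of the 77 genes, 69 were above 0, against 5397 of all 10010 genes. Between 61 and 74 of the 77 were above 0 under the scalings tried, and the number over all genes moves with the scaling as well. A 2-fold higher intensity was reached by 21 genes (27.3%), against 21.7% of all genes. This count moved with the scaling, together with that of all genes, from 16 genes (20.8%) against 15.9% with spike-in probes to 44 genes (57.1%) against 32.9% without scaling. On the low side, 2 genes (2.60%) were at least 2-fold lower, against 22.3% of all genes. The probes of these genes were bright, and bright probes varied less. Among 946 other genes in the brightest 10%, the median was 0.07, 10.6% were at least 2-fold higher and 12.4% at least 2-fold lower.

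In MFH1NR the median log2 ratio to MSCs was 0.44, with quartiles of 0.10 and 0.78, against 0.01 over all genes. Above 0 were 61 of 77 genes, against 5044 of all 10010 genes, and between 61 and 75 of the 77 under the scalings tried. Which line had the higher median depended on the scaling: it was 1.07 in COS1NR and 1.20 in MFH1NR without scaling, and 0.40 and 0.96 with spike-in probes. A 2-fold higher intensity was reached by 10 genes (13.0%), against 20.8% of all genes and 8.67% of the bright genes. The order of these shares changed with the scaling as well, to 50 genes (64.9%) against 41.6% of all genes without scaling, 36 (46.8%) against 34.2% with spike-in probes and 20 (26%) against 23.3% after quantile normalization. It also changed with another background correction, normexp, to 13 genes (16.9%) against 14.1% of all genes. None of the 77 genes was at least 2-fold lower, against 23.2% of all genes and 16.5% of the bright genes. The lowest value was that of Cox7a2l, at -0.94.

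**Figure D1:**
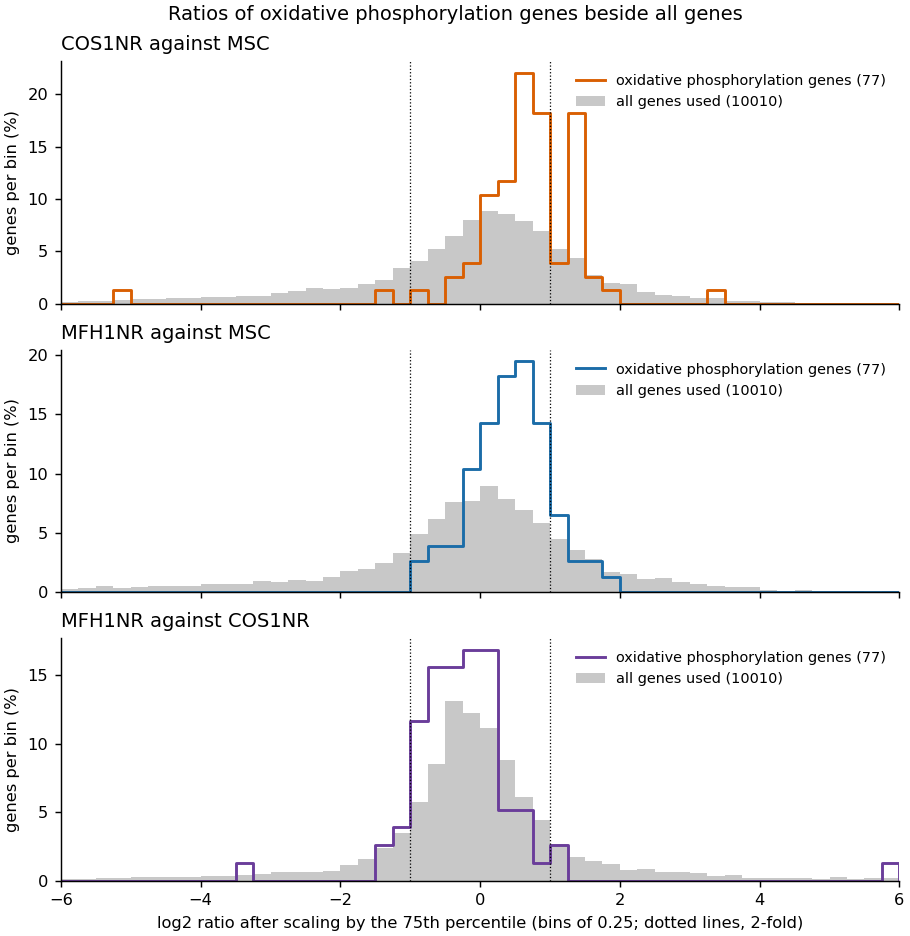
Share of genes (vertical axis, percent of genes per bin) by log2 ratio (horizontal axis, bins of 0.25) in each comparison. Gray bars show all 10010 genes used and the colored line the 77 oxidative phosphorylation genes. Most of the 77 lie in a narrower band than all genes. Their median lies to the right of 0 in the upper panels and at -0.25 in the lowest panel.

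Between the lines, on 1 slide, the median log2 ratio of MFH1NR to COS1NR was -0.25, with quartiles of -0.63 and 0.04. The sign of this median depended on the scaling: it was 0.11 without scaling, 0.02 after quantile normalization and 0.54 when 7 spike-in probes set the scale. The median of all genes was -0.11, and without scaling it was 0.25. Leaving out the scaling adds 0.39 to every log2 ratio of COS1NR to MSCs, 0.76 to those of MFH1NR to MSCs and 0.36 to those between the lines, and spike-in scaling adds -0.27, 0.52 and 0.79, so each median and count of complexes and gene lists given below moves with the scaling. At 2-fold, 3 genes (3.90%) were higher in MFH1NR, against 13.9% of all genes and 4.86% of the bright genes. Lower in MFH1NR were 6 (7.79%), against 16.0% of all genes and 10.1% of the bright genes.

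The spread that a single ratio carries could be measured only within an array. For genes with several probes, the ratios of the probes differed by a median of 0.28 in COS1NR against MSCs, 0.31 in MFH1NR against MSCs and 0.15 between the lines, and the 90th percentiles were 0.91, 0.99 and 0.59. The medians are called the probe spread here. This covers neither cultures nor labeling. Members close to the 2-fold limit, such as Ndufc2 at 1.06 and Cox7a2 at 0.99 in COS1NR, or Ndufab1 at 1.04 and Ndufa4 at 0.96 in MFH1NR, were therefore not separated by that limit.

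Complex I, the NADH dehydrogenase, was represented by 30 subunits. In COS1NR 30 of 30 had a ratio above 0, against 5397 of all 10010 genes. The median was 0.79, and 11 (36.7%) exceeded MSCs by at least 2-fold, against 21.7% of all genes. In MFH1NR 25 of 30 were above 0, against 5044 of all 10010 genes. The median there was 0.29 and 3 (10%) were at least 2-fold higher, against 20.8% of all genes. Without scaling the higher subunits numbered 20 (66.7%) and 17 (56.7%), against 32.9% and 41.6% of all genes, so that in MFH1NR the order of the shares turned. The median ratio of MFH1NR to COS1NR was -0.51, but 0.28 when spike-in probes set the scale, and 4 subunits (13.3%) were at least 2-fold lower in MFH1NR, against 16.0% of all genes.

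The redox centers of complex I are bound by core subunits. Ndufs1, the largest core subunit and an iron-sulfur protein, measured 2.42 in MSCs, against 6.68 in COS1NR and 4.31 in MFH1NR, with log2 ratios to MSCs of 1.47 and 0.83. In COS1NR the log2 ratios of other core subunits were 0.48 for Ndufs3, 0.76 for Ndufs7, 0.56 for Ndufs8, 0.44 for Ndufv1 and 0.47 for Ndufv2. In MFH1NR they were 0.62 for Ndufs3 and 0.55 for Ndufs7, while Ndufs8 at -0.07, Ndufv1 at -0.22 and Ndufv2 at 0.14 lay within the probe spread of 0.

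Accessory subunits of complex I, which surround the core without taking part in electron transfer, held most of the 2-fold values. Ndufb9 had a relative intensity of 41.8 in MSCs, against 137 in COS1NR and 56.6 in MFH1NR. COS1NR was highest, 3.28-fold above MSCs and 2.42-fold above MFH1NR. Ndufb3, at 35.0, 80.5 and 39.5 in MSCs, COS1NR and MFH1NR, had the same order, and so had Ndufb10, at 6.69, 16.5 and 7.97. The 2-fold difference of these 3 genes between the lines was lost under other scalings, with log2 ratios of MFH1NR to COS1NR of -0.91, -0.66 and -0.68 without scaling and -0.48, -0.23 and -0.25 with spike-in probes. Ndufv3, by contrast, was high in each line, at 2.60 in MSCs, against 8.0 in COS1NR and 5.55 in MFH1NR. Ndufab1, the mitochondrial acyl carrier protein, measured 9.57 in MSCs, against 23.4 in COS1NR and 19.7 in MFH1NR. In COS1NR, Ndufb4 at 1.35, Ndufb5 at 1.31 and Ndufc2 at 1.06 also passed 2-fold in log2 ratio to MSCs. A second probe of Ndufc2 gave 3.44 in COS1NR and 2.91 in MFH1NR, where the brighter probe gave 1.06 and 0.51, so that the size of its difference depended on the probe. Ndufs4 was faint on every array, at 0.129 in MSCs, against 0.355 in COS1NR and 0.151 in MFH1NR, and its ratio of 1.46 in COS1NR became 0.83 under the normexp background correction. Ndufs5 had the smallest range of the complex I subunits, 19.9 to 23.1 over the arrays.

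**Figure D2:**
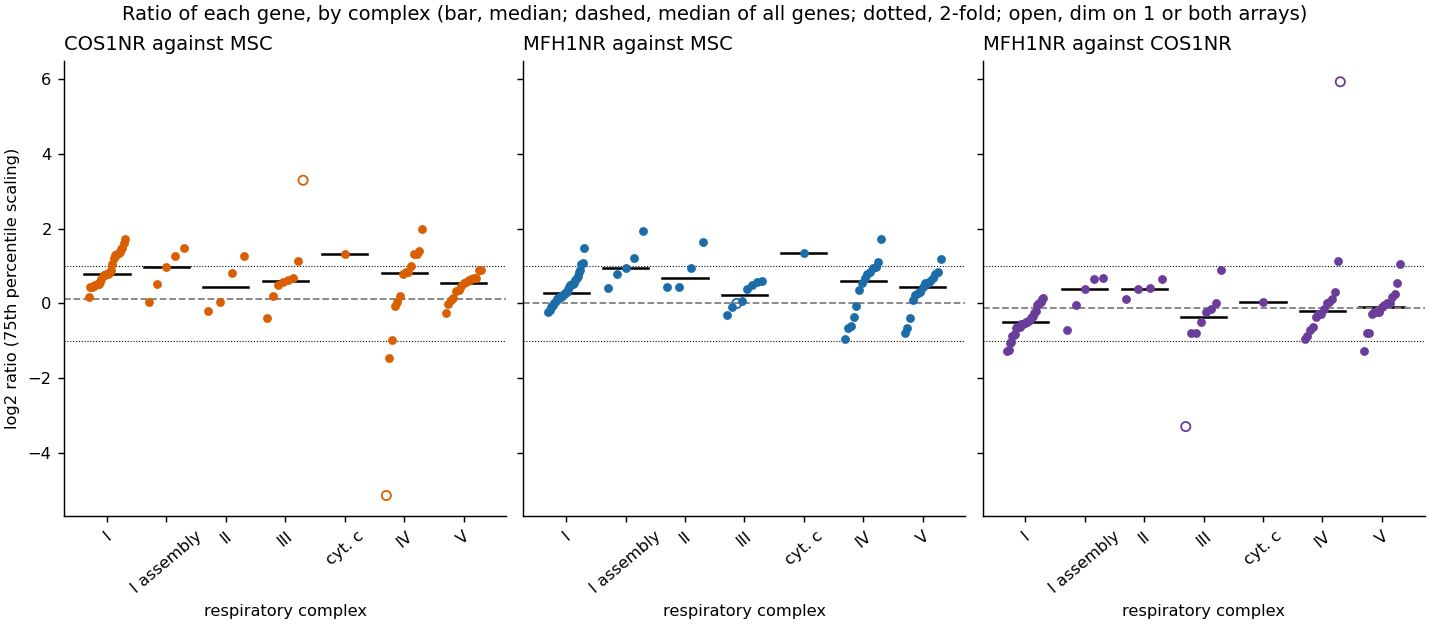
Log2 ratio of each oxidative phosphorylation gene (vertical axis) by complex (horizontal axis) in the 3 comparisons, with the median of each complex as a bar and the median of all genes as a dashed line. Complex I subunits lie above 0 in COS1NR and mostly below 0 in MFH1NR against COS1NR (above 0 in median when spike-in probes set the scale), and the open points far from the rest are Uqcrq and Cox6b2, each dim on at least 1 array of its comparison.

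The 5 assembly factors of complex I that carry the Ndufaf symbol help to build the complex and are not part of it. Ndufaf4 had a relative intensity of 1.36 in MSCs, against 3.28 in COS1NR and 5.17 in MFH1NR. Its ratio of 1.93 was the highest of the 77 genes in MFH1NR, and the other probes of the gene gave 1.93 and 2.09. Ndufaf3 measured 1.92 in MSCs, against 2.74 in COS1NR and 4.42 in MFH1NR, and Ndufaf1 measured 0.457, 1.28 and 0.785. Ndufaf4 and Ndufaf3 were thus highest in MFH1NR and Ndufaf1 in COS1NR. For Ndufaf1 the log2 ratio of MFH1NR to COS1NR was -0.71. Spike-in scaling adds 0.79 to it, so its order between the lines changes with that scaling. Ndufaf5, at 8.21, 8.39 and 11, had the smallest range of the 5.

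Complex II, the succinate dehydrogenase, has 4 subunits, and 4 were measured. Sdhc, a membrane anchor with a part of the heme site, had a relative intensity of 10.3 in MSCs, against 24.6 in COS1NR and 32.2 in MFH1NR, or 2.39-fold and 3.13-fold above MSCs. Sdhd, the other anchor, measured 14.6, 25.6 and 27.9, with log2 ratios of 0.81 and 0.94. The catalytic subunits differed less. Sdha, the flavoprotein, measured 39.7 in MSCs, against 34.3 in COS1NR and 54.0 in MFH1NR. Sdhb, the iron-sulfur subunit, measured 16.2, 16.7 and 22.0. The median ratio of complex II was 0.43 in COS1NR and 0.69 in MFH1NR, or 0.16 and 1.21 with spike-in scaling. In MFH1NR 4 of 4 subunits were higher than in COS1NR, by a median of 0.39 in log2, against 4447 of all 10010 genes.

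Complex III was represented by 8 genes, whose median log2 ratios to MSCs were 0.59 in COS1NR and 0.22 in MFH1NR, the latter 0.98 without scaling, 0.74 with spike-in scaling and 0.54 after quantile normalization. Uqcrfs1, the Rieske iron-sulfur protein, had a relative intensity of 23.4 in MSCs, against 50.8 in COS1NR and 35.6 in MFH1NR, and was 2.17-fold higher in COS1NR than in MSCs. With this scaling the core proteins went different ways. Uqcrc1 measured 3.84 in MSCs, against 2.93 in COS1NR and 5.44 in MFH1NR, lowest in COS1NR. Uqcrc2 measured 13.2, 21.3 and 12.3, highest in COS1NR. Spike-in scaling adds 0.79 to its log2 ratio of -0.78 between the lines, which leaves the lines level for Uqcrc2. Uqcrh, a hinge protein for cytochrome c, had the smallest range, 53.7 to 62.2. The probe of Uqcrq was well above background only in COS1NR, where its intensity of 46.5 was close to the lowest intensity with that call, 29.4, and it was at least 1.98-fold above MSCs. The value of 3.29 in log2 that it took in the counts rests on dim spots and became 0.64 under the normexp correction.

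Cycs, the cytochrome c that carries electrons from complex III to complex IV and that is also released in apoptosis, had a relative intensity of 25 in MSCs, against 61.8 in COS1NR and 63.5 in MFH1NR. It was 2.47-fold and 2.54-fold above MSCs, with 3 probes, whose log2 ratios ran from 1.31 to 1.42 in COS1NR and from 1.20 to 1.34 in MFH1NR. Between the lines the probes did not give 1 direction, with log2 ratios of MFH1NR to COS1NR of 0.04, -0.17 and -0.18.

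Complex IV, the cytochrome c oxidase, had the widest range of ratios. Its 14 genes had medians of 0.81 in COS1NR and 0.61 in MFH1NR, but also held the lowest values of the 77 genes. In COS1NR, 4 (28.6%) were at least 2-fold higher and 2 (14.3%) at least 2-fold lower, against 21.7% and 22.3% of all genes, and in MFH1NR 2 (14.3%) were higher, against 20.8%. Without scaling the higher genes numbered 8 (57.1%) and 9 (64.3%), against 32.9% and 41.6% of all genes, so that in MFH1NR the order of the shares turned. Cox7c, a small subunit, had a relative intensity of 2.75 in MSCs, against 10.8 in COS1NR and 9.0 in MFH1NR. Its 3.93-fold and 3.27-fold differences from MSCs were the largest of complex IV among the probes that were well above background on all arrays. Cox5a, a matrix-side subunit, measured 20.7, 35.8 and 44.2, and was 2.14-fold above MSCs in MFH1NR. Cox5b, which binds zinc, measured 21.5, 56.2 and 34.5. Its second probe gave log2 ratios of 0.79 in COS1NR and -0.07 in MFH1NR, where the first gave 1.39 and 0.68. Cox6c measured 59.5 in MSCs, against 149 in COS1NR and 76.7 in MFH1NR, and Cox7b measured 13.9, 34.5 and 26.7. Ndufa4, once counted with complex I and now known as a subunit of complex IV, measured 35.2, 63.1 and 68.5.

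Several subunits of complex IV have an isoform of restricted use. Cox4i1, the common form of the largest nuclear subunit, had a relative intensity of 17.2 in MSCs, against 19.8 in COS1NR and 10.9 in MFH1NR. Cox4i2, the form known from lung and from low oxygen, measured 6.27 in MSCs, against 2.26 in COS1NR and 4.93 in MFH1NR. It was 2.78-fold lower in COS1NR than in MSCs and 2.19-fold higher in MFH1NR than in COS1NR. Cox4i1 had the opposite order between the lines, with a log2 ratio of -0.86. Spike-in scaling adds 0.79 to it, which leaves it within the probe spread of 0. Levels of different probes are not set against each other here.

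Cox6b2, the testis form of a subunit that faces cytochrome c, showed the widest range of the 77 genes. Its intensity was 179 in MSCs, against 6.72 in COS1NR and 522 in MFH1NR, and the value in COS1NR was not well above background. COS1NR was therefore at least 7.99-fold lower than MSCs and MFH1NR at least 13.8-fold higher than COS1NR. The common form Cox6b1 had no named probe. Cox6a1, the common form of another subunit, was almost level, at 230 in MSCs, against 220 in COS1NR and 221 in MFH1NR, and had the smallest range of complex IV. Its muscle form Cox6a2 was faint, at 0.784, 0.798 and 0.517. Cox7a2 measured 26.7, 53.2 and 48.0. Cox7a2l, which is known to join complexes III and IV into supercomplexes, was lower in the lines, at 19.8 in MSCs, against 10 in COS1NR and 10.3 in MFH1NR. Leaving out the scaling adds 0.76 to the log2 ratio of -0.94 of Cox7a2l in MFH1NR, which then lies within the probe spread of 0. Cox8a, the common form of the smallest subunit, measured 58.9, 104 and 85.4. Its restricted forms Cox8b and Cox8c were well above background on no array.

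**Figure D3:**
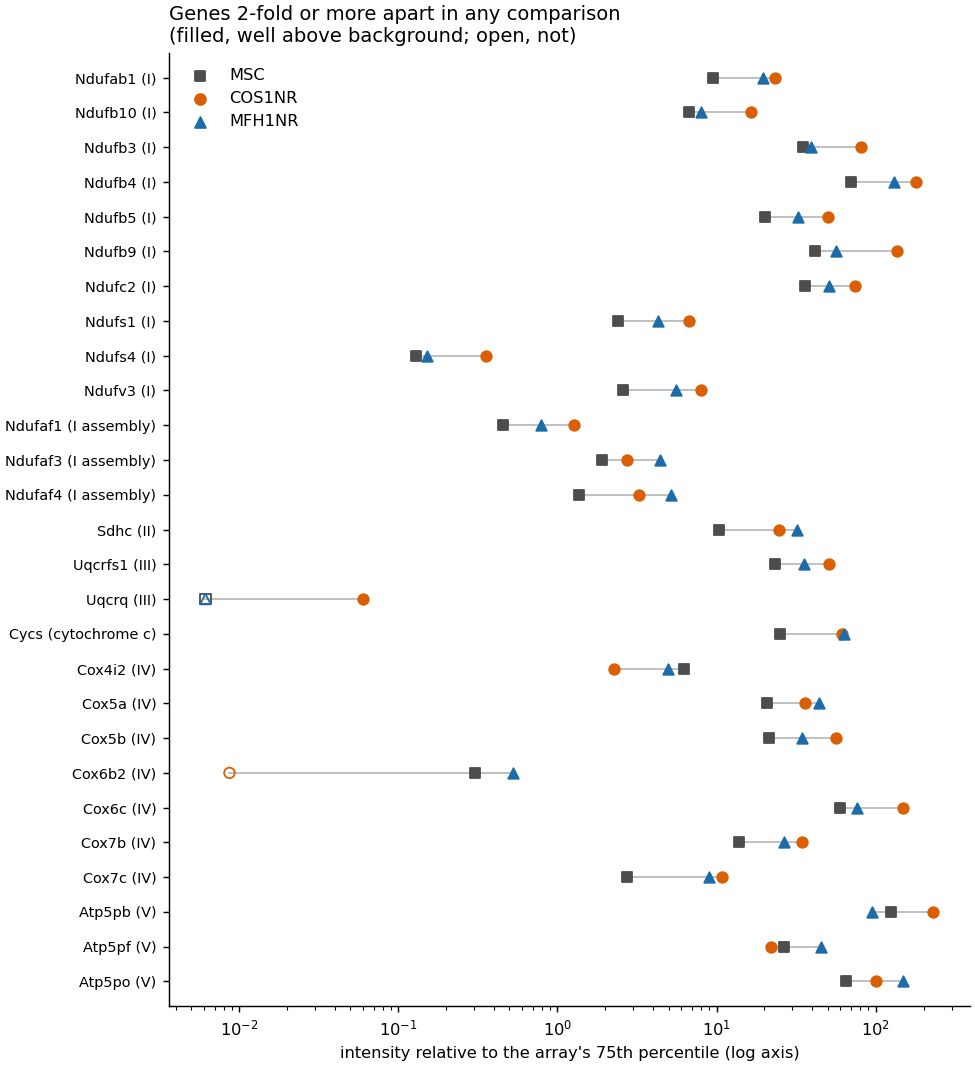
Relative intensity (horizontal log axis, multiples of the array's 75th percentile) of reported oxidative phosphorylation genes at least 2-fold apart in any comparison, with MSCs as squares, COS1NR as circles and MFH1NR as triangles. Most squares lie to the left of their circle and triangle, as for Cox7c at 2.75 against 10.8 and 9.0, while Cox4i2 and Cox6b2 are lowest in COS1NR, and open symbols mark values not well above background.

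In complex V none of the 15 genes differed by 2-fold or more between COS1NR and MSCs, against 21.7% of all genes higher and 22.3% lower, and 1 (6.67%) was 2-fold or more above MSCs in MFH1NR, against 20.8%. Without scaling 6 (40%) and 10 (66.7%) genes were at least 2-fold higher, against 32.9% and 41.6% of all genes. The catalytic subunits Atp5f1a and Atp5f1b measured 31.4 and 39.7 in MSCs, 47.1 and 63.6 in COS1NR, and 55.9 and 54.0 in MFH1NR. Parts of the peripheral stalk, which holds the catalytic head in place, differed in order. Atp5po was highest in MFH1NR, at 65.2 in MSCs, against 101 in COS1NR and 148 in MFH1NR. Atp5pf measured 26.4, 22.0 and 45.2, also highest in MFH1NR. Atp5pb measured 124, 230 and 95.2, and was 2.41-fold higher in COS1NR than in MFH1NR, though its log2 ratio between the lines fell short of 2-fold at -0.91 without scaling, -0.90 after quantile normalization and -0.48 with spike-in probes. The genes for the proton-carrying ring protein differed little in COS1NR: Atp5mc1 measured 29.7 in MSCs, against 41.2 in COS1NR and 34.9 in MFH1NR, and Atp5mc2 measured 70.5, 70.2 and 40.5. Atp5if1, the inhibitor of the enzyme, was the steadiest, at 41.8, 44.6 and 44.8.

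Gene promoters were searched for letters that the factors Nrf1, Gabpa and Yy1 are known to bind in genes of the respiratory chain. The windows of RefSeq in the GRCr8 build run from 250 bases before to 50 bases after each gene's start, and 70 of the 79 genes had one. The letters searched were GCGCATGC (Nrf1 core), CCGGAAG (core of the ETS factors, of which Gabpa is one) and AAGATGGC (Yy1 core), on both strands. The Nrf1 core was present in 12 of 70 windows (17.1%) against 3.23% of 19005 protein-coding genes, the ETS core in 21 (30%) against 11.2%, and the Yy1 core in 12 (17.1%) against 3.92%. At least 1 of the 3 was found in 34 windows (48.6%), against 16.8% of all, while the GC content was similar, with medians of 56.7% and 55.3%. Ratios were taken from the 68 genes with a window that were well above background on at least 1 array. The median log2 ratio of the 11 such members with the Nrf1 core was 0.51 in COS1NR and 0.44 in MFH1NR, and that of the 57 without it was 0.75 and 0.51. For the ETS core these were 0.68 and 0.44 with the letters, and 0.75 and 0.50 without. For the Yy1 core they were 0.66 and 0.52 with the letters, and 0.71 and 0.46 without. Genes with these letters thus had no higher medians than genes without them, except for the Yy1 core in MFH1NR.

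The 200 bases before the start are shown, 5′ to 3′, for Cycs and Ndufaf4, which hold the Nrf1 core and were at least 2-fold higher in each line, for Atp5me, which holds all 3 motifs, for Cox8a, which holds the ETS and Yy1 cores, and for Cox7c, which holds none of them. Among genes of complex IV well above background on all arrays, Cox7c had the largest ratios to MSCs. The 5 were chosen after their values were seen. Capitals mark the motifs, and they run over 10 letters where the Nrf1 core overlaps its own reverse complement. The Yy1 core of Cox8a begins 4 bases before the start and runs past the end of the stretch, so it is left in lower case. The stretches lie at chr4:80984768-80984967 on the minus strand (Cycs), chr5:43401595-43401794 on the plus strand (Ndufaf4), chr14:1464660-1464859 on the plus strand (Atp5me), chr1:213833624-213833823 on the minus strand (Cox8a) and chr2:18579171-18579370 on the minus strand (Cox7c) of GRCr8.
Cycs: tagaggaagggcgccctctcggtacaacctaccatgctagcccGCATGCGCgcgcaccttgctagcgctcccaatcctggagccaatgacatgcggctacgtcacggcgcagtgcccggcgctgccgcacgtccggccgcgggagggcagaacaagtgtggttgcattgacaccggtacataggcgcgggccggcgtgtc
Ndufaf4: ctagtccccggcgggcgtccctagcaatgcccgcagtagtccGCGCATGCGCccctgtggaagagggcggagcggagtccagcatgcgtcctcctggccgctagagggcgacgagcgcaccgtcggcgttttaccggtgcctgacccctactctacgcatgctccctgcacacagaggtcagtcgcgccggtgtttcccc
Atp5me: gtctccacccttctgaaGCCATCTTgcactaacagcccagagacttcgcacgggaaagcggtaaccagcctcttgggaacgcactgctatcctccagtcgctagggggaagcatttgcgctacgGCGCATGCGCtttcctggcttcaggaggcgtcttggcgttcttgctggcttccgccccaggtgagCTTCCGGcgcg
Cox8a: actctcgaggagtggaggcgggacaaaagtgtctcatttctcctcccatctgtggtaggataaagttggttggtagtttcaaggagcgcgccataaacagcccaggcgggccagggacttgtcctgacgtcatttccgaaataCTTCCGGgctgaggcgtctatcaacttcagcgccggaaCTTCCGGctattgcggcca
Cox7c: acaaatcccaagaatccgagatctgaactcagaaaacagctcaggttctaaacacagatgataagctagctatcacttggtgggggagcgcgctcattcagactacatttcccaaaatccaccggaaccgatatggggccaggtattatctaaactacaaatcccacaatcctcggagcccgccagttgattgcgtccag

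Genes that act on mitochondrial DNA and on this set of promoters were followed in a list of 20 regulators, of which 18 were used. In COS1NR 7 (38.9%) were at least 2-fold higher and 1 lower, against 21.7% and 22.3% of all genes, with a median of 0.41. With spike-in scaling 3 (16.7%) were higher, against 15.9% of all genes, and the median was 0.14. In MFH1NR 8 (44.4%) were higher and none lower, against 20.8% and 23.2%, with a median of 0.85. Tfam, which packages and transcribes mitochondrial DNA, had an intensity of 3459 in MSCs, against 12807 in COS1NR and 13605 in MFH1NR, with log2 ratios of 1.5 and 1.22. Nrf1 had an intensity of 373, 1146 and 1439, with log2 ratios of 1.22 and 1.19. Ppargc1b, a coactivator of these factors, had an intensity of 34.6, 345 and 368, with log2 ratios of 2.92 and 2.65. Its relative Ppargc1a was well above background only in MFH1NR, where it was at least 3.93-fold above MSCs. Gabpa had an intensity of 414 in MSCs, against 469 in COS1NR and 2068 in MFH1NR, with log2 ratios of -0.21 and 1.57. Ppara was at least 2.56-fold higher in COS1NR than in MSCs.

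Other mitochondrial genes were set beside these values. The 30 assembly factors without the Ndufaf symbol had medians of 0.58 in COS1NR and 0.49 in MFH1NR, and 11 (36.7%) and 7 (23.3%) of them were at least 2-fold higher, against 21.7% and 20.8% of all genes. In MFH1NR this count was 4 (13.3%) with the normexp correction, against 14.1% of all genes, and 20 (66.7%) without scaling, against 41.6%. Those with the widest range were Taco1, a translation activator for complex IV, with 1.89 and 1.63, Acad9, a factor for complex I, with 1.84 and 0.52, and Cox16 with 1.77 and 0.92. The 19 import genes had medians of 0.65 and 0.42, with Hspd1, a chaperonin, at 1.32 and 0.84, Tomm7 at 1.31 and 0.41, and Dnajc19 at 1.13 and -0.37. The 8 genes of ubiquinone synthesis had medians of 0.73 and -0.11, the latter above 0 with median or spike-in scaling or without scaling. Coq3 stood apart in MFH1NR with 2.76, while Pdss2 at -0.63 and Coq7 at -0.29 were below 0 there.

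The 18 genes of the tricarboxylic acid cycle and pyruvate dehydrogenase had medians of 0.39 and 0.24, the former 0.11 with spike-in scaling and the latter 0.99 without scaling. Ogdh had log2 ratios of 1.5 and 1.98, and Idh3a of 0.67 and 1.43. Pdha1, the catalytic subunit of pyruvate dehydrogenase, had an intensity of 4627 in MSCs, against 11530 in COS1NR and 6.13 in MFH1NR, which was not well above background, so that MFH1NR was at least 260-fold below MSCs. The 11 carriers and uncoupling proteins had medians of 0.19 and -0.29, both of which changed sign with spike-in scaling, the latter also without scaling. Among them Slc25a27 had an intensity of 22.2 in MSCs and 533 in COS1NR and was dim in MFH1NR, Slc25a14 had log2 ratios of 0.42 and -0.33, and Ckmt2 was well above background only in MSCs.

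Glycolysis, the route to ATP outside the mitochondrion, had medians of 0.20 and -1.04 over 15 genes, the former at -0.07 with spike-in scaling. The latter was -0.28 without scaling and -0.52 with spike-in scaling. In MFH1NR 8 of the 15 (53.3%) were at least 2-fold lower than in MSCs, against 23.2% of all genes. This count was 3 (20%) without scaling, against 15.4% of all genes, and 5 (33.3%) with spike-in scaling, against 17.3%. Ldhb, a lactate dehydrogenase subunit, had log2 ratios of -1.16 and -3.39, Hk2, a hexokinase, of -1.72 and -3.07, and Slc2a1, a glucose transporter, of -0.61 and -2.54.

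The 63 genes for mitochondrial ribosomal proteins, which translate the subunits encoded by mitochondrial DNA, had medians of 0.84 in COS1NR and 0.52 in MFH1NR. The 74 genes for cytosolic ribosomal proteins had medians of -0.21 and -0.59, but 0.18 and 0.16 without scaling and 0.06 and 0.03 after quantile normalization. The 36 proteasome subunits had medians of 0.56 and 0.12, the latter 0.88 without scaling, 0.64 with spike-in scaling and 0.46 after quantile normalization. These 3 lists were chosen after values were seen.

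**Figure D4:**
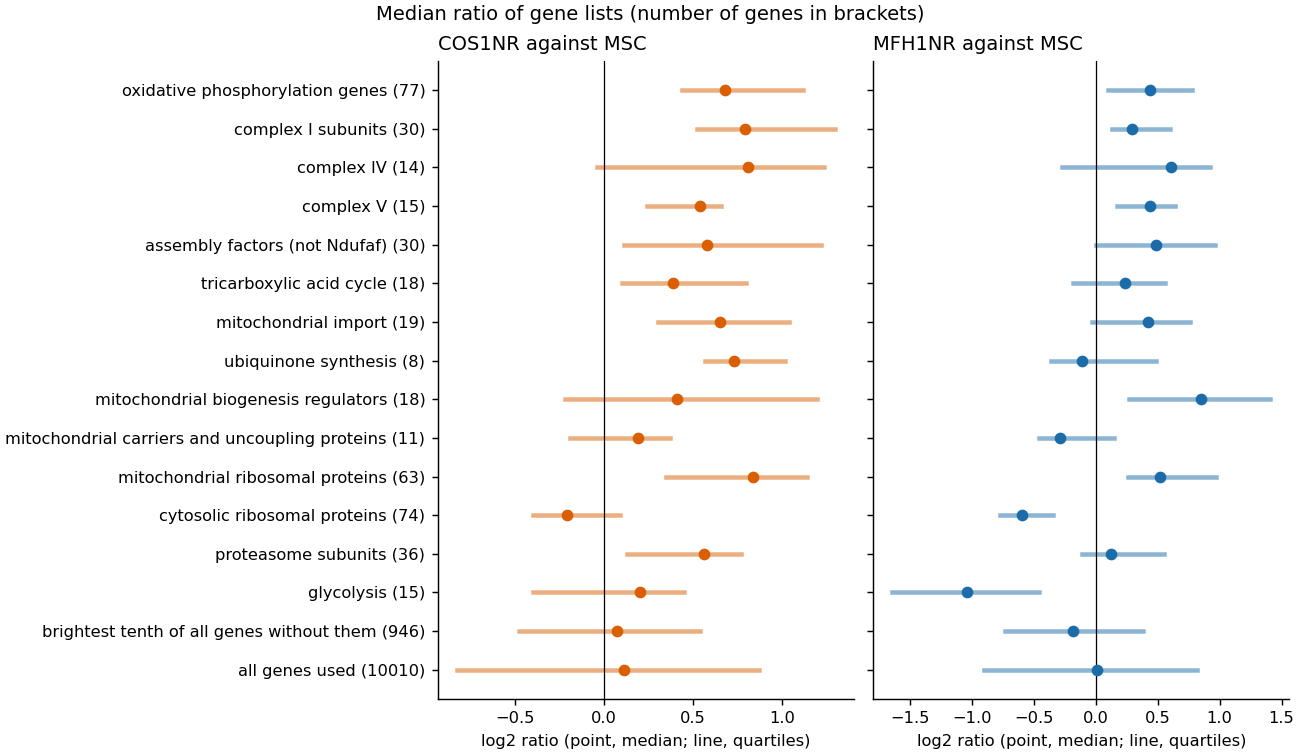
Median log2 ratio to MSCs (points) and quartiles (lines) of gene lists in COS1NR (left) and MFH1NR (right), with the number of genes in brackets. Oxidative phosphorylation genes (medians 0.68 and 0.44) and mitochondrial ribosomal proteins (0.84 and 0.52) lie to the right of all genes, and cytosolic ribosomal proteins (-0.21 and -0.59) to the left, the latter below 0 with this scaling but not without scaling or after quantile normalization.

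Relative to the median of all genes, the median of the 77 genes was 0.56 in COS1NR and 0.43 in MFH1NR. Leaving out the scaling, or using the median or spike-in probes, cannot change these values, because each of these moves all genes by the same amount. After quantile normalization they were 0.64 and 0.67, and with the normexp correction 0.70 and 0.56. Between the lines the value was -0.14, and 0.02 after quantile normalization.

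**Figure D5:**
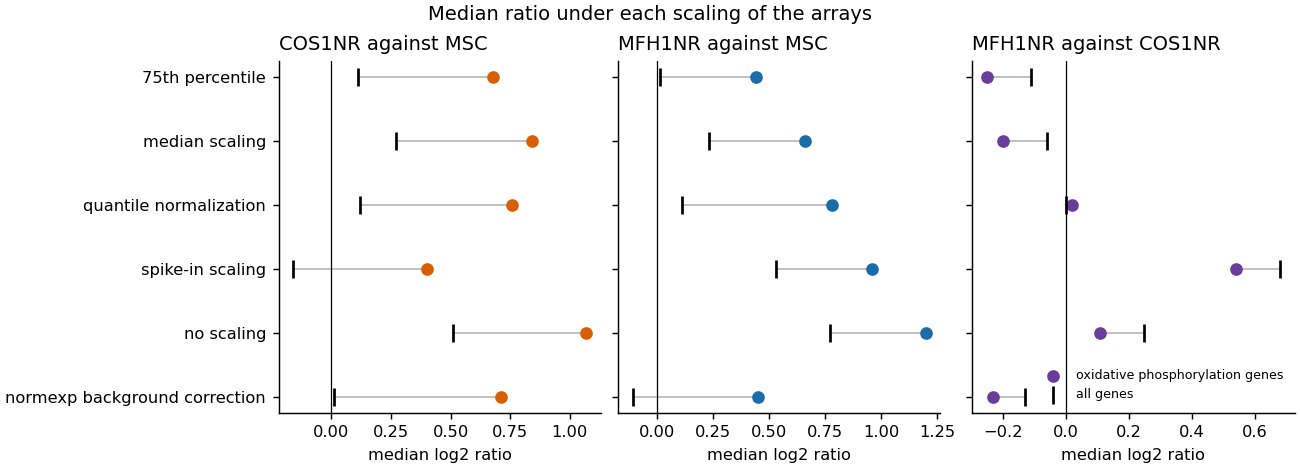
Median log2 ratio (horizontal axis) of the oxidative phosphorylation genes (points) and of all genes (ticks) under each scaling or background correction (rows) in the 3 comparisons. The points lie to the right of the ticks in each row of the comparisons with MSCs, while between the lines the order and the sign change with the row, from -0.25 to 0.54.

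Near-identical copies limit single values. A named pseudogene was found for 36 of the 77 genes, and probes of such genes may also bind transcripts of the copies. The genes with and without one had medians of 0.70 and 0.68 in COS1NR and 0.53 and 0.44 in MFH1NR.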

How the data were processed

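Total RNA of MSCs, COS1NR and MFH1NR was measured on 1 Agilent one-colour array each. Per the file headers, the authors' deposited intensity of each spot was background-subtracted and detrended within its array by Agilent Feature Extraction 10.5.1.1, while the submitters' processing notes name version 9.1. It was not scaled between arrays, and the deposited table of the series held the same values. Labels and methods name different RNA and labeling kits.

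Control and outlier spots were left out, spots of a probe were averaged in log2, and each array's 75th percentile (589 in MSCs, against 774 in COS1NR and 994 in MFH1NR) was subtracted in log2. Probes were named by RefSeq accession through a gene table of GRCr8. The array was annotated on an older build, so no probe positions are given. The probe of highest mean log2 intensity stood for a gene, which was used if well above background on at least 1 array. Where 1 array was dim, "at least" folds used the higher of the dim value and the lowest intensity well above background (17.9 in MSCs, against 29.4 in COS1NR and 30.1 in MFH1NR). With 1 array per cell type nothing was tested, and genes 2-fold or more apart were counted, while the number of arrays limits the precision. The counting step was tested on simulated data. The genes named are those 2-fold apart, the isoforms, the core subunits, the steadiest gene of each complex and up to 3 of widest range per other list. Results of some single genes are not reported here, but such genes stay in the counts and medians. Members, lists and this rule were chosen with earlier results of these data known. Alternatives were other scalings, normexp with an offset of 50, the deposited series table, other probe rules and filters, a 1.5-fold limit and the set without assembly factors. Raising dim values to the background limit was added after seeing the data. Python 3.11.15, numpy 2.4.6, pandas 2.3.3 and limma 3.58.1 in R 4.3.3 were used.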

Additional observations from a re-analysis of the deposited data

Results flagged for a closer look

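For 4 genes the lines lay on opposite sides of the MSC array, each beyond the typical difference between 2 probes of 1 gene, whose medians were 0.28 and 0.31. The values of Atp5pb, Uqcrb and Uqcrc1 lay inside the 90th percentiles of that difference, 0.91 and 0.99. Without scaling, opposite sides held only for Cox6b2, at -4.73 (a dim value) in COS1NR and 1.55 in MFH1NR, while the pairs were 1.28 and 0.37 for Atp5pb, 0.88 and 0.44 for Uqcrb and 0.00 and 1.26 for Uqcrc1. These differences between lines were not tested. In log2, MFH1NR minus COS1NR was -1.27 for Atp5pb, a peripheral stalk subunit of complex V, and -0.48 with spike-in scaling. It was 0.89 for Uqcrc1, a core protein of complex III, and 1.69 with spike-in scaling. It was -0.80 for Uqcrb, another subunit of that complex, whose 3 probes gave -0.80, -0.89 and -0.63. The brightest of them gave -0.44 without scaling or after quantile normalization and -0.01 with spike-in scaling. For Uqcrb, opposite sides beyond that typical difference held for the brightest probe only, at 0.48 and -0.31, while the others gave 0.89 and 0.00, and 0.07 and -0.56. The difference was 3.79 for Cox6b2 with the dim value of COS1NR set at its bound.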

How the results depend on the processing

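Without scaling, the genes at least 2-fold higher numbered 44 in COS1NR and 50 in MFH1NR against MSCs, with medians of 1.07 and 1.20, and between the lines 7 were higher and 1 lower in MFH1NR, with a median of 0.11. Over all genes the shares 2-fold higher were then 32.9% and 41.6%. Between the lines the shares were 20.9% higher and 11.3% lower. Scaling by the median gave 19 higher genes in MFH1NR (25.9% of all genes). Quantile normalization gave 20 (23.3%), with a median of 0.78, and between the lines 2 lower genes (14.8%), a median of 0.02 and 0.02 relative to all genes. Spike-in scaling, with 7 probes, gave 36 higher genes in MFH1NR (34.2%), a median of 0.96, and between the lines 13 higher (34.9%), 1 lower (8.42%) and a median of 0.54. With probes well above background on all arrays, 1 gene was lower in COS1NR (15.1%). Without a filter, the median between the lines relative to all genes was 0.05. At 1.5-fold, 44 genes were higher in COS1NR (33.7%), 28 higher (30.9%) and 5 lower (32.1%) in MFH1NR, and 7 higher (22.3%) and 22 lower (27.0%) between the lines. Percentages are shares of all genes under the same setting. Leaving out the scaling, or scaling by spike-in probes or the median, shifts all genes by 1 amount by construction, a stricter filter tests fewer genes and a lower limit admits more, and for quantile normalization and the missing filter the cause was not tested. The normexp correction, the mean of all probes, the series table, the set without assembly factors and dim values raised to the background limit kept each count of the whole set within 1.5 times and the sign of its medians. For single complexes and lists this did not hold: with normexp, 4 genes of complex IV in place of 2 were at least 2-fold higher in MFH1NR. Normexp also lowered the share of all genes 2-fold higher in MFH1NR to 14.1%, below the 16.9% of the whole set.

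Of 42 ratios of named genes past 2-fold, none changed sign under any alternative, and 13 fell below 2-fold under at least 1. These were ratios of MFH1NR to COS1NR of Ndufb3, Ndufb9, Ndufb10, Ndufs4, Atp5pb and Uqcrq, and ratios of COS1NR to MSCs of Ndufaf4, Ndufb3, Ndufc2, Ndufs4, Sdhc, Uqcrfs1 and Uqcrq. No paired analysis was possible because each cell type had 1 array.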

Other observations

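Genes next to Pdha1 and Coq3 were looked up by their order in the gene table. Pdha1 and Coq3 were picked by hand after the values were seen, and neighbours of other genes with wide ranges were not looked up. Pdha1 had an intensity of 6.13 in MFH1NR, against 4627 in MSCs and 11530 in COS1NR. Sh3kbp1, 2 places away, had an intensity of 2466 in MSCs, against 1480 in COS1NR and 6.79 in MFH1NR, at least 138-fold below MSCs. Bclaf3, 3 places away, was at least 9.74-fold below MSCs in MFH1NR, and Eif1ax, 5 places away, had a log2 ratio of -4.27 there. On the other side of Pdha1 the genes Adgrg2 and Ppef1 were well above background on no array.

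Ndufaf4, the gene with the highest ratio in MFH1NR among the oxidative phosphorylation genes, lies 8 places from Coq3, which had an intensity of 4443 in MSCs, against 7993 in COS1NR and 50896 in MFH1NR. Between and around them, the log2 ratios of MFH1NR to MSCs were 2.95 for Mms22l, 1.22 for Pnisr, 1.73 for Ccnc and 2.52 for Ggh, and the ratios of COS1NR to MSCs were 2.13, -0.92, -0.69 and 0.54. The dim gene Pou3f2 also lies there. No DNA was measured.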
